A study of Mus musculus with 9 samples.

Results

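TRBV13 is the mouse T-cell receptor beta variable gene family long known as V-beta 8, with the 3 members TRBV13-1 (V-beta 8.3), TRBV13-2 (V-beta 8.2) and TRBV13-3 (V-beta 8.1). Beta chains were taken as members when their productive contig, the assembled receptor transcript of 1 cell barcode, had 1 of these genes as its first variable gene call. Each distinct combination of variable gene, joining gene and nucleotide junction was counted once per library and is called a beta clonotype. The family held 7385 of 27448 beta clonotypes in 8 libraries, of which 2213 used TRBV13-1, 3096 used TRBV13-2 and 2076 used TRBV13-3. Whether a chain belonged to a member was set by its gene call alone.

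The study profiled immune cells from lymph nodes of female mice aged 10 to 11 months with droplet-based single-cell receptor sequencing. There was 1 library for each of 3 node types in each of 2 genotypes, wild-type (WT) and 5xFAD, a transgenic line used as a model of Alzheimer's disease. The nodes were the deep cervical nodes (dCLN), the superficial cervical nodes (sCLN) and the inguinal nodes (iLN). A further deep cervical library carries CD4 in its title and the genotype label WT, and a mixed library pools all 3 node types and both genotypes. Hashtag-labelled cell samples were combined within libraries, the tables used here carry no hashtag, and the labels do not say how many mice a library holds or whether nodes came from the same mice, so p-values measure only the spread between libraries.

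A library of the same kind as the CD4-titled one but labelled 5xFAD was not used. It shares 6829 barcodes, and 12709 combinations of barcode and junction, with the CD4-titled library, so which genotype label holds for those cells could not be settled, and the CD4-titled library entered no genotype comparison. The other 28 pairs among the 8 libraries shared at most 46 barcodes and no combination of barcode and junction. The libraries held 1963 to 6963 productive beta chains with a median of 7 to 10 UMIs (unique molecular identifiers, counts of captured transcripts) per chain, and 1875 to 6686 beta clonotypes. No TRBV call was ambiguous between genes, and 0 beta contigs were nonproductive.

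A beta chain gene is built in the thymus by joining a diversity segment (TRBD) to a joining segment (TRBJ), and then a variable segment (TRBV) to that product. At each joint the ends are trimmed by exonuclease and random bases are added by terminal transferase, and the resulting junction encodes CDR3, the loop that contacts peptide. CDR1 and CDR2, which contact mainly the MHC molecule, are encoded in the variable gene itself. V-beta 8 is a large part of the mouse repertoire, is the target of the bacterial superantigen SEB, and is the beta family most used by invariant natural killer T cells.

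The genes lie head to tail on the forward strand of chromosome 6 (GRCm38), and each has a short leader exon followed by a V exon. TRBV13-1 spans 41116007 to 41116468, TRBV13-2 spans 41121396 to 41121832 and TRBV13-3 spans 41130147 to 41130585. They alternate with the TRBV12 genes, in the order TRBV12-1, TRBV13-1, TRBV12-2, TRBV13-2, the pseudogene TRBV12-3, TRBV13-3 and TRBV14. Over the 294 bases of the V exon, TRBV13-2 and TRBV13-3 were identical at 91.8% of positions, TRBV13-1 and TRBV13-2 at 88.8%, and TRBV13-1 and TRBV13-3 at 86.1%.

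The loops set by the genes are shown because they are among the parts that differ between the members outside the junction. Over the whole V exon each pair of members differed at 24 to 41 bases, most of them outside these loops. Capitals mark the positions at which the 3 members do not all match. The germline CDR1 sequences differ at 5 positions.
TRBV13-1 CDR1, chr6:41116261-41116275: aataGccaCAacTaC
TRBV13-2 CDR1, chr6:41121625-41121639: aataAccaCAacAaC
TRBV13-3 CDR1, chr6:41130378-41130392: aataAccaTGacTaT
The germline CDR2 sequences differ at 4 positions, and at 3 of these TRBV13-3 stands apart from both other members.
TRBV13-1 CDR2, chr6:41116327-41116344: tcatatgGTgctgGcaAc
TRBV13-2 CDR2, chr6:41121691-41121708: tcatatgGTgctgGcaGc
TRBV13-3 CDR2, chr6:41130444-41130461: tcatatgTCgctgAcaGc
The germline 3′ ends, from the conserved cysteine codon to the last base of the V exon, are shown because trimming acts on them. Capitals mark the bases after the third codon.
TRBV13-1 3′ end, chr6:41116453-41116468: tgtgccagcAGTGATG
TRBV13-2 3′ end, chr6:41121817-41121832: tgtgccagcGGTGATG
TRBV13-3 3′ end, chr6:41130570-41130585: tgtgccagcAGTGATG
TRBV13-1 and TRBV13-3 end in the same 16 bases, and TRBV13-2 differs from both in 1 of them. Chains called as untrimmed carried these annotated bases in 598 of 620 TRBV13-1, 1055 of 1086 TRBV13-2 and 355 of 384 TRBV13-3 chains.

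Most TRBV13-2 chains did not begin with the TRBV13-2 leader exon. In 2357 of 3197 TRBV13-2 chains (73.7%, exact 95% interval 72.2 to 75.2%, counting error only), the V exon of TRBV13-2 was preceded by the leader exon of TRBV12-2, the gene directly upstream, whose own V exon was skipped. Their own leader was carried by 741 chains (23.2%), and a longer form of it, with 21 bases between leader and V exon, by 98 chains (3.07%). The joints are shown with the own leader in lower case, the TRBV12-2 leader or the 21 bases in capitals, and the first bases of the TRBV13-2 V exon in lower case at the end.
own leader: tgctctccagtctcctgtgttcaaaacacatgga
TRBV12-2 leader: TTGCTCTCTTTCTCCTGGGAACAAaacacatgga
longer form: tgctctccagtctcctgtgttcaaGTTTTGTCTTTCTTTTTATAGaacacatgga
All 3 forms read in frame from the start codon to the conserved cysteine with no stop codon, and the 21 bases add 7 codons. A leader encodes most of the signal peptide, which is cut off the mature chain, and where the 3 forms are cut was not tested.

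The TRBV12-2 leader prevailed in every library. Its share of TRBV13-2 chains was 77.4% for WT and 70.1% for 5xFAD in the deep cervical nodes, 65.9% and 71.2% in the superficial cervical nodes, and 73.4% and 57.9% in the inguinal nodes. It was 83.0% in the CD4-titled library and 71.5% in the mixed library. The 5xFAD library was lower than the WT library in the deep cervical and inguinal nodes and higher in the superficial cervical nodes, and the lowest share, in iLN 5xFAD, had an exact interval of 51.1 to 64.5%. The neighbours of TRBV13-2 showed almost none of this. TRBV13-1 chains carried the leader of TRBV12-1, their own upstream neighbour, in 3 of 2318 cases (0.129%), and all 2160 TRBV13-3 chains carried their own leader, which lies downstream of the pseudogene TRBV12-3.

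Each of the 3197 combinations of barcode and TRBV13-2 junction was held by 1 contig. Whether 1 cell carries more than 1 leader form could therefore not be read. Among 85 TRBV13-2 clonotypes of 2 or more cells, 59 had the TRBV12-2 leader in every cell, 8 in none, and 18 held cells of both kinds. Mean UMIs per chain were 6.89 to 9.63 with the TRBV12-2 leader and 5.74 to 8.07 with the own leader over the 8 libraries, and were lower with the TRBV12-2 leader in 1 of 8 libraries.

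**Figure D1:**
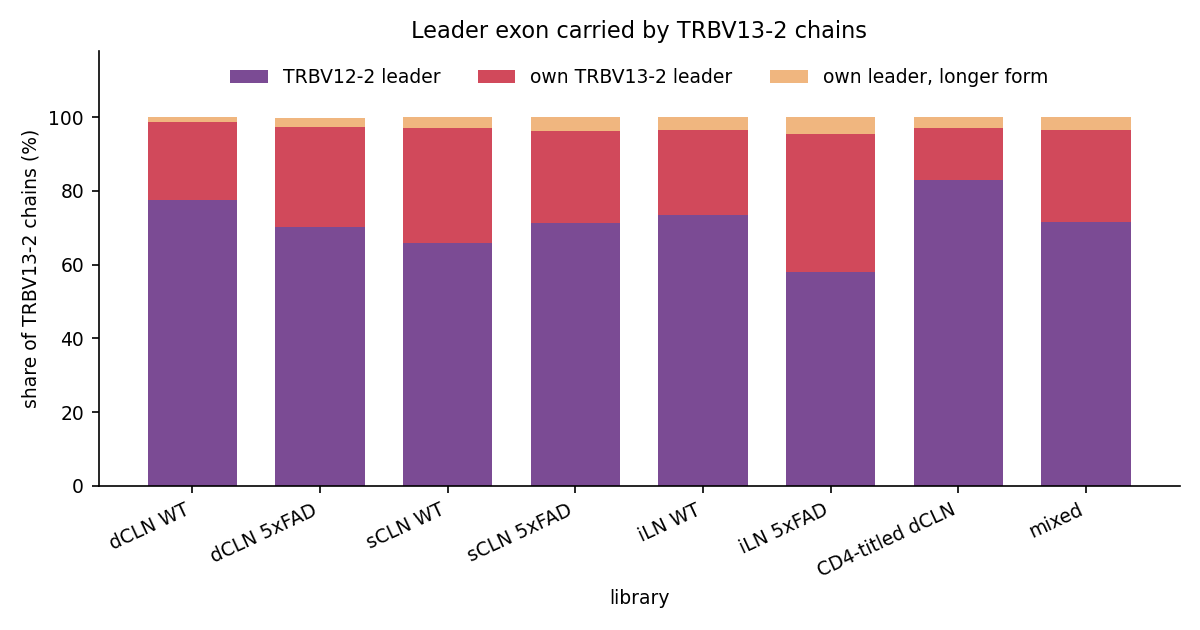
Share of TRBV13-2 chains (percent) by the leader exon they carry, for each of the 8 libraries; each bar is 1 library and its segments stack to nearly 100%. The TRBV12-2 leader takes 57.9% (iLN 5xFAD) to 83.0% (CD4-titled dCLN) of the chains, and the longer form of the own leader is the thin segment at the top.

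TRBV13-2 chains carried fewer UMIs than those of the other members. The median UMI count per chain was 6 to 8 for TRBV13-2 over the 8 libraries, 8 to 13 for TRBV13-1 and 8 to 10.5 for TRBV13-3. The mean was lowest for TRBV13-2 and highest for TRBV13-1 of the 3 members in 8 of 8 libraries, and TRBV13-2 was below the mean of all other TRBV genes in 8 of 8. Whether UMI depth bears on the shares of genes given next was not tested beyond the minimum of 2 UMIs tried as an alternative.

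TRBV13-2 was the most used of the 21 detected TRBV genes in 6 of 8 libraries. Its share of beta clonotypes was 10.9% for WT and 10.6% for 5xFAD in the deep cervical nodes, 11.1% and 11.0% in the superficial cervical nodes, and 13.5% and 8.97% in the inguinal nodes. It was 12.6% in the CD4-titled library and 10.3% in the mixed library. It ranked 2 in dCLN 5xFAD and 5 in iLN 5xFAD, where TRBV1 led. TRBV13-1 took 9.49%, 8.56%, 10.3%, 6.87%, 8.48%, 11.3%, 6.36% and 7.36% of clonotypes in the same order of libraries. TRBV13-3 took 7.29%, 8.09%, 9.39%, 6.76%, 8.48%, 9.50%, 6.18% and 7.49%. The 2 outer genes were thus highest in iLN 5xFAD, the library in which TRBV13-2 was lowest, and both were lowest in the CD4-titled library.

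Over the 8 libraries the shares were 11.1% ± 1.40 (SD, n = 8) for TRBV13-2, 8.59% ± 1.71 for TRBV13-1 and 7.90% ± 1.19 for TRBV13-3, and 27.6% ± 2.49 for the family, which ranged from 24.7 to 30.8%. TRBV13-2 was above TRBV13-3 in 7 of 8 libraries by a mean of 3.24 percentage points (exact two-sided sign-flip permutation test over libraries, p = 0.0156, adjusted p = 0.0359). It was above TRBV13-1 in 7 of 8 libraries, with a mean difference of TRBV13-1 minus TRBV13-2 of -2.54 points that did not pass after adjustment (exact p = 0.0469, adjusted p = 0.0898). TRBV13-1 minus TRBV13-3 was 0.695 points with the same p-values, so neither difference of TRBV13-1 from its neighbours in the order passed. The adjustment (Benjamini-Hochberg) ran over all 69 tests of single measures made within libraries, of which 43.5% passed an adjusted p of 0.05. Of the 36 tests between members 41.7% passed, and of the 33 between a member and all other TRBV genes 45.5%. With 8 libraries the smallest p such a test can give is 0.00781. None of the 69 tests passed without dCLN 5xFAD, without sCLN 5xFAD or without the mixed library (smallest adjusted p 0.0513 each time), where 7 libraries allow no p below 0.0156.

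**Figure D2:**
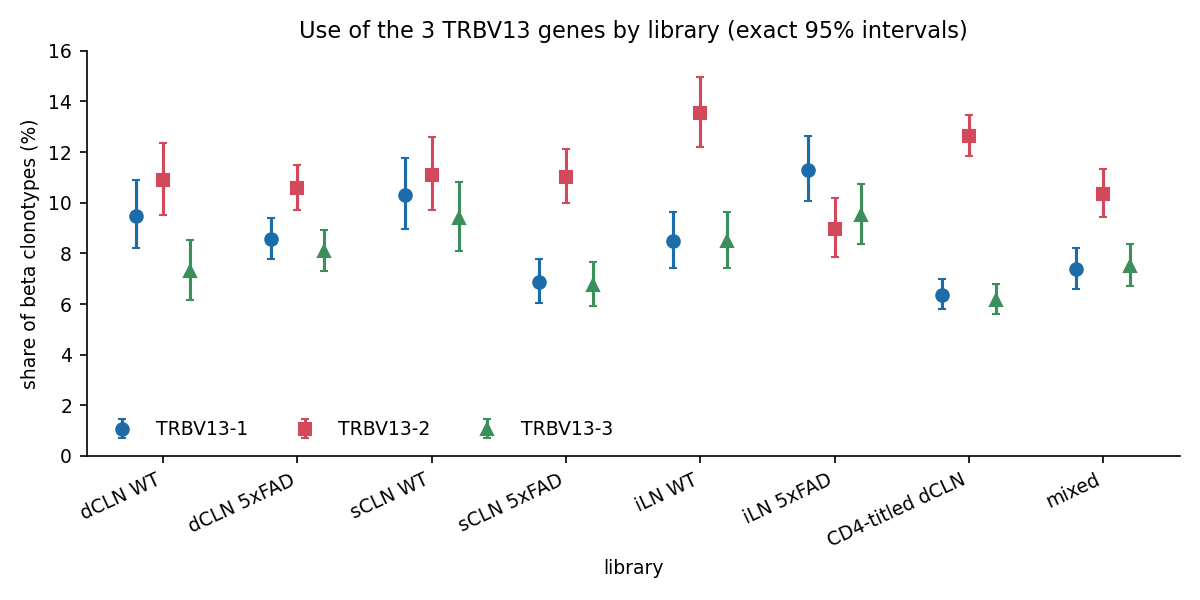
Share of beta clonotypes (percent) that used each TRBV13 gene in each of the 8 libraries; points are libraries and bars are exact 95% intervals for counting error. TRBV13-2 lies highest in 7 libraries and lowest in iLN 5xFAD, where it has 8.97% against 11.3% for TRBV13-1.

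Across libraries TRBV13-1 and TRBV13-3 moved alike. The Pearson correlation of their log2 shares was 0.88 over 8 libraries, while that of TRBV13-1 with TRBV13-2 was -0.51. Of the TRBV genes outside the family, TRBV29 (r = 0.75) and TRBV14 (r = 0.71) were most like TRBV13-1, TRBV14 (r = 0.85) and TRBV29 (r = 0.78) most like TRBV13-3, and TRBV2 (r = 0.67) and TRBV16 (r = 0.63) most like TRBV13-2. These values are descriptions, since all shares of a library add to the same total and share its depth.

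No member passed the test between genotypes in a fit over the 6 single-node libraries. The fitted log2 fold change of 5xFAD over WT was -0.10 (SE 0.18) for TRBV13-1, -0.21 (SE 0.13) for TRBV13-2 and -0.05 (SE 0.14) for TRBV13-3, with adjusted p of 0.896, 0.562 and 0.906 (edgeR quasi-likelihood test with node as covariate, Benjamini-Hochberg over 33 TRBV and TRBJ genes). Of the 33 genes 0% passed, 3 had an unadjusted p under 0.05, and DESeq2 called 1, which was no member. The 18 other TRBV genes had a median log2 fold change of -0.09, with 8 above and 10 below 0 and 0 past the threshold. Without either superficial cervical library the fitted values of TRBV13-1 and TRBV13-3 turned positive, at 0.13 and 0.16.

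Within nodes the members went different ways. In the deep cervical nodes the log2 ratio of shares, 5xFAD over WT, was -0.15 for TRBV13-1, -0.04 for TRBV13-2 and 0.15 for TRBV13-3, and all 3 counting intervals held 0. In the superficial cervical nodes TRBV13-1 was at -0.58 (95% counting interval -0.85 to -0.32) and TRBV13-3 at -0.48 (-0.75 to -0.20), while TRBV13-2 was at -0.01 (-0.24 to 0.22). In the inguinal nodes TRBV13-2 was at -0.59 (-0.82 to -0.36), TRBV13-1 at 0.41 (0.17 to 0.66) and TRBV13-3 at 0.16 (-0.09 to 0.42). The family as a whole was at -0.32 (-0.45 to -0.19) in the superficial cervical nodes, -0.02 in the deep cervical and -0.03 in the inguinal nodes. Intervals without 0 were found for 0% of the 21 TRBV genes in the deep cervical, 38.1% in the superficial cervical and 42.9% in the inguinal nodes. With 1 library for each node and genotype these intervals hold counting error only, and genotype and library cannot be told apart.

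**Figure D3:**
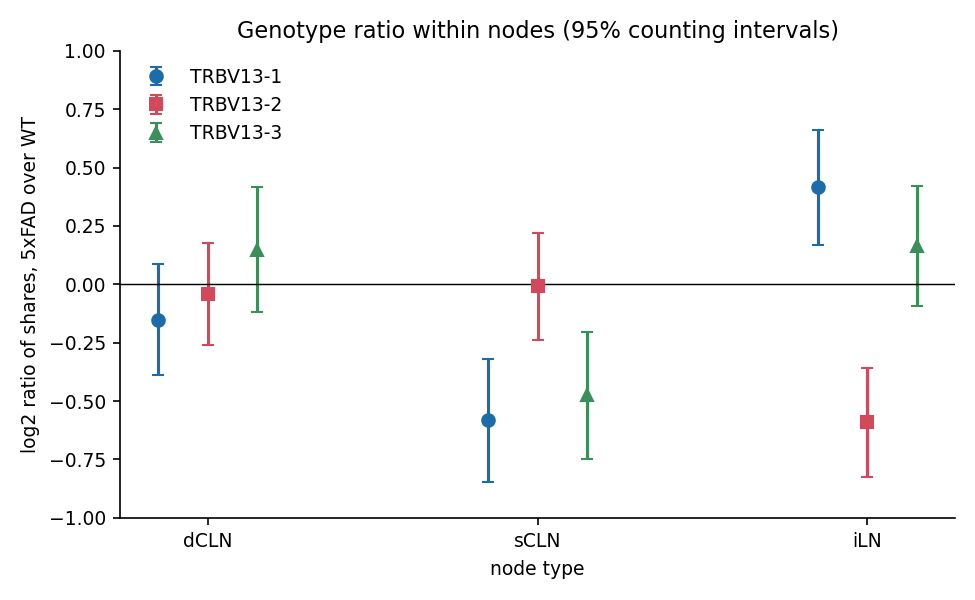
Log2 ratio of the share of beta clonotypes, 5xFAD over WT, for each member in each node type; bars are 95% counting intervals and the line marks equal shares. TRBV13-1 is at -0.58 in sCLN and 0.41 in iLN, and TRBV13-2 is near 0 except in iLN, at -0.59.

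Between node types none of the 3 members passed in any of the 3 contrasts, in which 0% of the 33 genes passed, 1, 2 and 0 genes had an unadjusted p under 0.05 (dCLN minus sCLN, dCLN minus iLN, sCLN minus iLN), and DESeq2 called 0. Without the sCLN WT library 4 genes passed in the contrast of superficial cervical minus inguinal nodes, among them TRBV13-1 (log2 fold change -0.58, edgeR adjusted p = 0.016) and TRBV13-3 (-0.49, adjusted p = 0.0367), where the only superficial cervical library left is assumed to vary like the others.

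The members differed in how much of the V end was kept at the junction. The mean number of germline V bases missing was 1.65 in the lowest, 1.81 in the median and 2.00 in the highest library for TRBV13-2, 2.03, 2.08 and 2.46 for TRBV13-1, and 2.35, 2.58 and 2.92 for TRBV13-3. TRBV13-2 lost the fewest bases of the 3 and TRBV13-3 the most in each of the 8 libraries. The mean difference was 0.333 nt for TRBV13-1 minus TRBV13-2, -0.455 nt for TRBV13-1 minus TRBV13-3 and -0.788 nt for TRBV13-2 minus TRBV13-3, each with an exact sign-flip p of 0.00781 and an adjusted p of 0.0270, and each in the same direction in 8 of 8 libraries. Against all other TRBV genes, at 2.58 nt, TRBV13-2 lost less in 8 of 8 libraries (exact test, adjusted p = 0.0270) and TRBV13-1 in 7 of 8 (adjusted p = 0.0359), while TRBV13-3, at 2.61 nt, did not pass (adjusted p = 0.821).

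An intact V end was found in 33.4% ± 3.45 (SD, n = 8) of TRBV13-2 clonotypes, 26.9% ± 2.88 of TRBV13-1 and 18.1% ± 3.11 of TRBV13-3. TRBV13-1 exceeded TRBV13-3 in 8 of 8 libraries by a mean of 8.83 percentage points (exact p = 0.00781, adjusted p = 0.0270), although the germline ends printed above are the same over 16 bases. The ranges of these 2 genes over libraries, 22.6 to 30.3% and 11.9 to 21.4%, did not overlap. TRBV13-2 exceeded TRBV13-3 in 8 of 8 libraries and TRBV13-1 in 7 of 8, with sCLN WT as the exception (exact test, adjusted p = 0.0270 and 0.0359). Loss of 2 bases was about equally common in the 3 members, at 22.6%, 21.6% and 22.4% for TRBV13-1, TRBV13-2 and TRBV13-3, whereas loss of 4 bases was found in 8.49%, 4.60% and 11.4%. Of the 21 TRBV genes, ordered by mean loss from the least, TRBV13-2 stood at 5, TRBV13-1 at 10 and TRBV13-3 at 13. For genes outside the family the germline end was the largest end called and was not checked against the annotation. In TRBV4 only 1.96% of clonotypes were intact by that end. This limit also holds for the trimming comparisons with other TRBV genes.

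**Figure D4:**
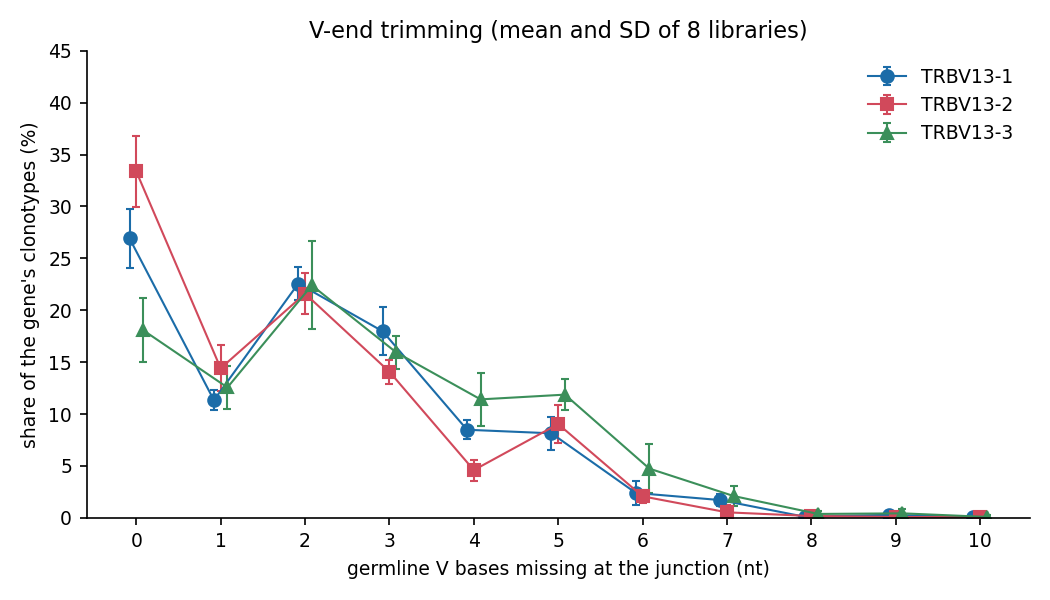
Share of each member's beta clonotypes (percent) by the number of germline V bases missing at the junction (nt); points are means and bars SDs of 8 libraries. At 0 bases the members separate into 33.4% (TRBV13-2), 26.9% (TRBV13-1) and 18.1% (TRBV13-3), and at 2 bases they lie together.

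The base that followed an intact V end also differed between members, in a comparison added after the values were seen. It was C in 61.5% of intact TRBV13-2 clonotypes (645 of 1048, exact interval 58.5 to 64.5%), in 43.3% of TRBV13-1 (257 of 593, 39.3 to 47.4%) and in 41.4% of TRBV13-3 (154 of 372, 36.3 to 46.6%). After a trimmed V end it was C in 40.5%, 42.3% and 42.2%. The bases CA, the complement of the last germline bases read inwards and so the pair a palindromic (P) addition would give, followed 22.9% of intact TRBV13-2, 18.9% of TRBV13-1 and 19.9% of TRBV13-3 ends, against 9.62%, 11.8% and 11.97% of trimmed ends. No test was run on these shares. A V end that lost its last G and then gained a G is read as intact, which holds for all 3 members.

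Fewer bases lay between the V segment and the next called segment in all 3 members than in other TRBV genes. In clonotypes without a called TRBD this stretch runs from V to TRBJ and can hold unrecognised TRBD bases. It is therefore not a pure count of bases added at the V joint. The mean was 2.49 nt for TRBV13-1, 2.54 nt for TRBV13-2 and 2.59 nt for TRBV13-3, against 2.83 nt in other TRBV genes, and was lower in 8, 8 and 7 of 8 libraries (exact test, adjusted p = 0.0270, 0.0270 and 0.0359). The members did not pass the test against each other, with differences between -0.09 and -0.05 nt. On the J side, counted only in clonotypes with a called TRBD, no difference passed, with means of 1.65 to 1.73 nt.

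Junctions of TRBV13-2 were the longest of the 3 members and those of TRBV13-3 the shortest on average. The mean length was 41.99 nt for TRBV13-2, 41.5 nt for TRBV13-1 and 41.3 nt for TRBV13-3. TRBV13-2 exceeded TRBV13-3 by 0.729 nt in 8 of 8 libraries (exact test, adjusted p = 0.0270) and TRBV13-1 was below TRBV13-2 in 7 of 8 by a mean difference of -0.48 nt (adjusted p = 0.0359). TRBV13-3 was also shorter than other TRBV genes, at 41.8 nt, in 8 of 8 libraries (adjusted p = 0.0270). The most frequent length was 14 codons in each member, with 27.0%, 30.4% and 29.0% of clonotypes of TRBV13-1, TRBV13-2 and TRBV13-3.

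TRBV13-2 was joined to the TRBJ2 cluster more often than the other members. The TRBJ2 share was 62.7% in the lowest, 68.2% in the median and 77.8% in the highest library for TRBV13-2, 58.5%, 63.0% and 66.9% for TRBV13-1, and 56.2%, 61.0% and 66.9% for TRBV13-3. The ranges overlapped, but within libraries TRBV13-2 was above TRBV13-1 and above TRBV13-3 in 8 of 8 (exact test, adjusted p = 0.0270 for each), with mean differences of -5.92 points for TRBV13-1 minus TRBV13-2 and 7.05 points for TRBV13-2 minus TRBV13-3. TRBV13-1 and TRBV13-3 were below other TRBV genes, at 66.2%, in 7 of 8 libraries each (adjusted p = 0.0359), and the difference of TRBV13-2 from them, higher in 4 of 8 libraries, did not pass (adjusted p = 0.359).

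Of single TRBJ genes, 4 of 72 differences (5.56%) passed in a fit of TRBJ choice over members and libraries (edgeR quasi-likelihood test, Benjamini-Hochberg over 12 genes in 6 contrasts; 16 had an unadjusted p under 0.05). TRBJ1-1 was chosen by 9.88% of TRBV13-1 clonotypes in the lowest, 11.6% in the median and 16.6% in the highest library, against 6.73%, 9.61% and 10.2% of TRBV13-2 (log2 fold change 0.39, SE 0.12, adjusted p = 0.0274, higher in 8 of 8 libraries), 1 of 12 genes (8.33%) in that contrast. TRBJ2-5 was chosen by 13.102%, 16.2% and 17.8% of TRBV13-2 against 10.0%, 11.8% and 13.6% of TRBV13-3 (log2 fold change 0.42, SE 0.10, edgeR adjusted p = 0.00672, higher in 8 of 8), in a contrast in which 16.7% of genes passed. The other gene of that contrast, TRBJ1-3, was at 2.36%, 4.84% and 8.17% in TRBV13-2 and 4.37%, 7.79% and 9.44% in TRBV13-3 (log2 fold change -0.59, SE 0.18, edgeR adjusted p = 0.0274, lower in 7 of 8). TRBJ1-3 was also higher in TRBV13-3 than in other TRBV genes, where it stood at 4.03%, 4.79% and 6.04% (log2 fold change 0.59, SE 0.14, edgeR adjusted p = 0.00461, higher in 7 of 8), 8.33% of the genes in that contrast.

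These calls depended on the libraries included and on the tool. None of the 72 passed in the 6 single-node libraries alone, and DESeq2 called 2, both TRBJ1-3. Without dCLN 5xFAD or without the mixed library only the higher TRBJ1-3 of TRBV13-3 against other TRBV genes passed. The TRBJ1-1 difference also missed the threshold without sCLN WT (edgeR adjusted p = 0.131) and with TMM factors (0.0648), and that of TRBJ1-3 between TRBV13-2 and TRBV13-3 without iLN 5xFAD (0.0595) and without the CD4-titled library (0.083).

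**Figure D5:**
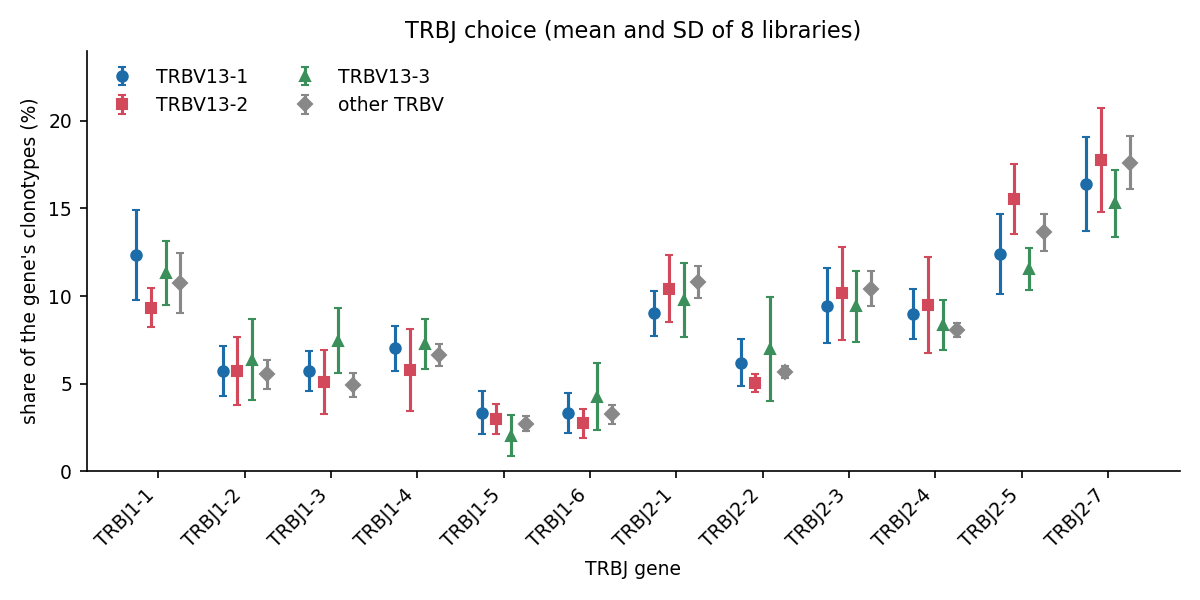
Share of clonotypes (percent) joined to each TRBJ gene, for the 3 members and for all other TRBV genes; points are means and bars SDs of 8 libraries. TRBV13-2 lies above the other members at TRBJ2-5 (mean 15.5%), and TRBV13-3 above all at TRBJ1-3 (mean 7.44%).

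The diversity segment followed the same division. TRBD2 was called in 36.0% ± 3.88 (SD, n = 8) of TRBV13-2 clonotypes, 28.5% ± 3.89 of TRBV13-1 and 25.5% ± 3.01 of TRBV13-3, and TRBV13-2 was above both in 8 of 8 libraries (exact test, adjusted p = 0.0270 for each). TRBD1 was called in 33.7% of TRBV13-2, 41.1% of TRBV13-1 and 42.01% of TRBV13-3 clonotypes. The difference in TRBD1 between TRBV13-2 and TRBV13-3 passed (-8.29 points, 8 of 8 libraries, exact test, adjusted p = 0.0270), and that between TRBV13-1 and TRBV13-2 did not (7.43 points, 6 of 8 libraries, adjusted p = 0.0653). No TRBD could be called in 24.6 to 27.4% on average, without a difference that passed.

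TRBD2 lies downstream of the TRBJ1 cluster, so TRBJ2 joints are where it can be used. Among TRBJ2 clonotypes pooled over libraries, TRBD2 was called in 49.4% of TRBV13-2 (1024 of 2072), 42.6% of TRBV13-1 (592 of 1391) and 38.6% of TRBV13-3 (487 of 1262). Among TRBJ1 clonotypes it was called in 5.18%, 4.74% and 4.42%, where the gene order offers no TRBD2 for joining by deletion. With TRBJ2 clonotypes alone, an alternative added after the values were seen, 24 of 26 passing differences in the other measures passed again, and all 26 kept their direction. Among the 26 are differences in the share of cells with a paired alpha chain. That measure was not limited to TRBJ2 in this run, so its values could not change.

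Cells with a TRBV13-2 beta chain were more often found with an alpha chain than those with TRBV13-1 or with TRBV genes outside the family. A paired alpha chain was present in 60.6% of TRBV13-2 cells in the lowest, 66.96% in the median and 80.3% in the highest library, against 43.9%, 65.0% and 75.7% for TRBV13-1 and 47.8%, 67.2% and 77.7% for TRBV13-3. TRBV13-1 was below TRBV13-2 in 8 of 8 libraries (mean difference -6.09 points, exact test, adjusted p = 0.0270) and below other TRBV genes in 7 of 8 (adjusted p = 0.0359), and TRBV13-2 was above other TRBV genes in 7 of 8 (adjusted p = 0.0359). The difference of TRBV13-2 from other TRBV genes had a mean of 3.20 points. It ranged from -0.54 to 13.5 points over libraries and was largest in iLN 5xFAD. TRBV13-2 minus TRBV13-3 missed the threshold (4.26 points, exact test, adjusted p = 0.0505). The lowest values of all 3 members, and of other TRBV genes at 47.0%, were in iLN 5xFAD.

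The alpha partners themselves showed no difference that passed. None of 354 tests (0%; 59 TRAV subgroups and TRAJ genes in 6 contrasts) passed in edgeR's quasi-likelihood test, 29 had an unadjusted p under 0.05, and DESeq2 called 0. The lowest p between TRBV13-1 and TRBV13-3 belonged to TRAV13, used with 11.1% ± 2.86 (SD, n = 8) of TRBV13-1 and 15.3% ± 4.42 of TRBV13-3 paired clonotypes (log2 fold change -0.53, edgeR adjusted p = 0.232), followed by TRAJ42 (3.49% and 1.73%, adjusted p = 0.481). Between TRBV13-2 and TRBV13-3 it was TRAJ33 (2.21% and 3.80%, adjusted p = 0.247) and TRAV13 (11.96% and 15.3%, adjusted p = 0.247). Between TRBV13-1 and TRBV13-2 it was TRAJ58 (2.14% and 1.10%) and TRAJ38 (1.22% and 0.439%), both with an edgeR adjusted p of 0.481.

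Unconventional T cells of some kinds have alpha chains that can be read from these tables. Invariant natural killer T cells, which see lipids on CD1d, use TRAV11 joined to TRAJ18, and 15 of 19 cells with that alpha chain carried a TRBV13 beta chain (78.9%, exact 95% interval 54.4 to 93.9%), against 26.7% of all 18060 paired cells. By gene they were 6 with TRBV13-1, 6 with TRBV13-2 and 3 with TRBV13-3, and 2 of the other cells used TRBV29 and 1 used TRBV1. With the alpha junction of 15 codons that marks the invariant chain, 15 of 17 cells carried TRBV13. They came from 4 libraries, with 6 in sCLN WT and 3 each in dCLN WT, iLN WT and the mixed library. MAIT cells, which see vitamin B metabolites on MR1, use TRAV1 joined to TRAJ33. Of 30 cells with that pair of alpha genes, 16 carried TRBV13 (53.3%, 34.3 to 71.7%), 9 of them TRBV13-3. Of the other cells 4 used TRBV1 and 2 used TRBV19. The alpha junction was not checked for these 30 cells, so not all need be MAIT cells. These counts are too small to compare members or libraries.

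Clonotypes of 2 or more cells made up 4.80% ± 3.11 (SD, n = 8) of TRBV13-1, 2.84% ± 1.90 of TRBV13-2 and 3.93% ± 1.86 of TRBV13-3 clonotypes, against 3.69% of other TRBV clonotypes, and no difference passed (exact tests, lowest adjusted p between members 0.102). The highest share of each member was in dCLN WT, at 11.4%, 6.13% and 7.75%. Other TRBV genes also had their highest share in that library, at 8.87%.

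Few junctions recurred between libraries. The same nucleotide junction was found in 2 or more libraries for 16 of 2194 TRBV13-1 junctions (0.729%), 28 of 3066 of TRBV13-2 (0.913%), 28 of 2047 of TRBV13-3 (1.37%) and 0.728% of those of other TRBV genes. Translated to amino acids the shares were 2.43%, 3.80%, 2.95% and 2.55%. The most widely shared junction of each member is shown with the bases called as V gene in capitals.
TRBV13-1 with TRBJ2-7, 3 libraries: TGTGCCAGCAGTGATGatgaacagtacttc
TRBV13-2 with TRBJ2-7, 4 libraries: TGTGCCAGCGGTGATGaacagtacttc
TRBV13-3 with TRBJ2-7, 3 libraries: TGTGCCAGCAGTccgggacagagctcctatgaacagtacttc
As called, the shared TRBV13-1 and TRBV13-2 junctions keep the whole V end, with no added base on the V side and no TRBD. They are 30 and 27 nt long. In the TRBV13-2 junction the last bases called as V, ATG, could also come from TRBJ2-7. The TRBV13-3 junction shows ATG before the same TRBJ2-7 bases. The TRBV13-3 junction lost 4 V bases, holds 2 added bases on the V side and a TRBD1 remnant, and is 42 nt long. For TRBV13-1, 3 junctions were found in 3 libraries each, and 1 of them is shown.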

How the data were processed

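Annotated receptor contigs were deposited by the authors as 1 table per library with AIRR-format columns, per the file headers. The submitters' processing notes name Cell Ranger 6.0.1, Seurat 4.1.0 and mm10, without a role. The deposited UMI count per contig is a whole-number count, the deposited V identity is a fraction, and the deposited lengths and germline positions are in bases, per the file headers; the software version behind the gene calls is not given in the sources used here.

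From these tables beta clonotypes, trimming (the largest germline V end seen for a gene minus the called end) and pairing (barcodes with exactly 1 productive beta and 1 or 2 productive alpha chains, keeping the alpha chain with more UMIs) were computed with Python 3.11.15, pandas 2.3.3 and scipy 1.17.1. Counts of clonotypes per gene were tested with edgeR 4.0.16 (quasi-likelihood, genes with at least 10 clonotypes, for alpha partners a mean of at least 2 per column; SE from the fold change and the F statistic), with DESeq2 1.42.0 as an alternative, in R 4.3.3. Single measures were compared within libraries by two-sided exact sign-flip permutation tests. Log2 ratios within nodes used a pseudocount of 0.5. Intervals of shares are exact Clopper-Pearson at 95%. Those of log2 ratios, and of differences between them, are normal approximations at 95% from the counts. All intervals cover counting error only. The tests were also run on simulated data, drawn with the same spread for all genes and without differences between libraries. Those runs do not show how the tests behave under the spread of the real libraries.

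Exon positions and sequences are from the GENCODE annotation of GRCm38, with V-beta names from RefSeq; V ends and leaders were matched to chains by sequence. No genome sequence was used, so recombination signals and promoters are not analysed here.

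The members, lists and tests were chosen with earlier results of these data known. Named genes are the members, TRBJ genes past the threshold, the 2 alpha genes of lowest p per member pair where none passed, and the 2 other TRBV genes most correlated with each member. The leader, next-base and UMI comparisons were added after values were seen. Alternatives tried are other filters, tools and units of counting and leaving out each library.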

Additional observations from a re-analysis of the deposited data

Results flagged for a closer look

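Of 36 differences between members looked at across the 8 libraries, 2 had a library far from the others; chance alone sets apart about 1 in 20 such groups. The paired alpha share of TRBV13-1 minus TRBV13-2 was -16.6 points in iLN 5xFAD and -7.76 to -1.73 in the other libraries. The mean junction length of TRBV13-1 minus TRBV13-3 was -0.667 nt in the mixed library and 0.112 to 0.714 nt in the others.

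The log2 ratio of 5xFAD over WT differed between nodes, by counting intervals of the difference that leave out 0, in 9 of 12 comparisons of the members and the family; these intervals hold no spread between libraries, so the difference between nodes as such was not tested. For TRBV13-1 it was 0.43 (dCLN minus sCLN), -0.57 (dCLN minus iLN) and -0.998 (sCLN minus iLN, interval -1.36 to -0.64). For TRBV13-2 it was 0.55 (dCLN minus iLN) and 0.58 (sCLN minus iLN). For TRBV13-3 it was 0.62 (dCLN minus sCLN) and -0.64 (sCLN minus iLN), and for the family 0.30 and -0.29 in the same contrasts.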

How the results depend on the processing

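The 30 differences in single measures that passed kept their direction under each alternative run. For a difference with the same sign in every library, runs that left out libraries could not change the direction. Those runs therefore do not test the direction of such a difference. Alternatives that changed which clonotypes or contigs were counted, other than the minimum of 2 UMIs, left the paired alpha share as it was. The direction of its differences was therefore fixed in those runs. Of all 69 tests, the number that passed was 0 in the 6 single-node libraries and 0 to 24 when 1 library was left out (at most 22 of the 30), with 0 without dCLN 5xFAD, sCLN 5xFAD or the mixed library. With 7 libraries the smallest exact p is 0.0156, which passes over 69 tests only where at least 22 differences reach it; with 6 it is 0.03125 and 44 must reach it, so these counts of 0 say little about stability. Counting contigs in place of clonotypes gave 28, and a minimum of 2 UMIs 29. The 4 TRBJ calls became 0 in the 6 single-node libraries, 2 with DESeq2 and 1 to 6 when 1 library was left out; the cause was not tested. The 0 calls between genotypes became 1 with DESeq2 and 0 to 1 when 1 library was left out, and the 0 between nodes became 0 to 4. Of the fitted log2 fold changes between genotypes, that of TRBV13-1 ranged from -0.36 to 0.13 over left-out libraries and that of TRBV13-3 from -0.16 to 0.16. Between nodes, dCLN minus sCLN ranged from -0.27 to 0.44 (TRBV13-1), -0.18 to 0.13 (TRBV13-2) and -0.37 to 0.26 (TRBV13-3). The contrast of dCLN minus iLN ranged from -0.49 to 0.28 (TRBV13-1) and -0.32 to 0.24 (TRBV13-2). The contrast of sCLN minus iLN ranged from -0.61 to 0.16 (TRBV13-1), -0.28 to 0.29 (TRBV13-2) and -0.49 to 0.14 (TRBV13-3), and for TRBV13-2 it also changed sign to 0.0021 with amino acid junctions and 0.021 with at least 2 UMIs. Each group has 1 library, so replicate numbers pair none; the fits within nodes and the tests within libraries are paired by their design. Shares of 1 library rest on 1875 to 6686 clonotypes, which limits what a single library can show.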
